A study of Mus musculus with 4 samples.

Results

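The receptors for fibroblast growth factors in the liver of GALP-treated obese mice are described here, together with β-Klotho, the co-receptor encoded by Klb. The 6 genes are Fgfr1, Fgfr2, Fgfr3, Fgfr4, Fgfrl1 and Klb, and every array probe that the files assign to one of these names was taken, which gave 16 of 41174 probes and 6 of 26582 gene names. All 16 had a value on all 4 arrays. Klb was the member that stood lowest in the GALP-treated livers, at 0.744 times the control and with a ratio below 1 on all 4 arrays. At their brightest probes Fgfr4, its partner receptor, and Fgfrl1 were also below the control on all 4 arrays, by smaller amounts. The other Fgfr4 probes were each above the control on 1 array. Fgfrl1 did not keep this pattern under another background correction and normalization. The brightest Fgfr2 probe was below the control on 3 of 4 arrays, at 0.90-fold in the mean beside 0.88-fold for Fgfrl1. Fgfr3 lay close to the control, and Fgfr1 was near the background of the arrays. None of the 16 probes was called changed under a strict reading of the study's thresholds.

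Fibroblast growth factors signal through receptor tyrosine kinases, the products of Fgfr1 to Fgfr4, and most of these ligands need heparan sulfate on the cell surface to hold the receptor. The endocrine members of the family bind heparan sulfate weakly and need a Klotho protein instead. In hepatocytes β-Klotho pairs with Fgfr4 to receive Fgf15, the signal from the intestine that lowers bile acid synthesis. In adipose tissue it pairs with Fgfr1 to receive Fgf21, a hormone that the liver releases on fasting and in obesity. Fgfrl1 binds ligands but lacks the kinase domain.

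The liver RNA came from male C57BL/6J mice with diet-induced obesity (DIO), bought at 8 weeks of age. They were kept for 14 weeks on a high-fat diet, weighed at least 40 g and stayed on that diet during dosing. Before dosing the mice were acclimatised with daily intranasal saline. They received 2 µL into the nose once a day for 11 days, either porcine GALP (galanin-like peptide, a hypothalamic neuropeptide) dissolved to 1 nmol in saline with α-cyclodextrin, or saline. The labels name saline alone for the control mice. RNA of 8 control mice was pooled, RNA of the 4 GALP-treated mice that lost more weight formed the greater weight loss pool, and RNA of the 4 that lost less formed the less weight loss pool. Each GALP pool was hybridised with the control pool on 2 dual-colour Agilent arrays, 1 with GALP in Cy5 and 1 with GALP in Cy3. In the lists of array values below, the order is greater weight loss with GALP in Cy5, greater with GALP in Cy3, less with GALP in Cy5 and less with GALP in Cy3. Ratios are log2 of GALP over control, the arrays of a pool were averaged, and each mean ± SD is over n = 2 pools. Both pools were set against the same control pool, so a deviation of that pool enters all 4 ratios.

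Several of the probes overlap, and their sequences show how far they are separate measurements. A pair of Fgfr1 probes shares 39 bases on chromosome 8 (mm9, plus strand, 26684042 to 26684101 and 26684063 to 26684122). The first was designed on the accession M28998 and is printed on 10 spots per array, the second on the RefSeq transcript and is printed on 1. The capital letter marks the only base at which the shared stretch differs, A57G, with the base of the first probe named first and positions counted from 1 at its 5′ end.
Fgfr1 A_51_P109469: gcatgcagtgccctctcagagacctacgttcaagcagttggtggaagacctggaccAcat
Fgfr1 A_52_P668810: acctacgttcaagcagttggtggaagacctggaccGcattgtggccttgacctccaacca
A pair of Fgfr3 probes on chromosome 5 (plus strand, 34078899 to 34078958 and 34078922 to 34078981) shares 37 bases and differs at T28C, counted in the same way. The stretch around that base is shown, with the difference again in capitals.
Fgfr3 A_51_P322906, bases 14 to 43: ggacttttctggcaTggcagttttgtttgt
Fgfr3 A_52_P506516, bases 1 to 20: ggcaCggcagttttgtttgt
The Klb probes do not overlap. The first lies at 65774926 to 65774985 on chromosome 5 and carries the RefSeq transcript, and the second lies at 65740979 to 65741038 and carries an Ensembl transcript. Their last 30 bases are shown because only the first gave a signal.
Klb A_51_P464394, bases 31 to 60: tttcaagattcactccggctccatgtactg
Klb A_52_P203368, bases 31 to 60: tgttgggagctaaatgaaaccaaccataaa
The files give a transcript and a position for each probe but no exon, and the exons were not looked up here.

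The methods give limits of 1.5-fold and 0.75-fold and a p-value of 0.01 from the scanner software, for changes shared by both GALP groups, but not the number of arrays on which the p-value must hold. They were read strictly here, so that a probe had to pass the fold limit in each pool and have the same direction and a p-value under 0.01 on all 4 arrays. By this reading 0 of the 16 member probes were called higher, beside 0.0585% of the 41037 probes tested, and 0 were called lower, beside 0.132%. With the p-value asked on only 1 array of each pool, 0 members were called in either direction. The limma test of the pool ratios called 0 of 16 at an adjusted p under 0.05, beside 0% of all probes. At an unadjusted p under 0.05 it counted 3 member probes as higher, beside 4.99% of all probes, and 1 as lower, beside 6.6%. The single lower probe was that of Klb, and the 3 higher ones were dim probes of Fgfr1 and Fgfr2 described below. On direction alone, 0 of 16 were higher on all 4 arrays, beside 5.33% of all probes, and 3 were lower on all 4, beside 6.63%. Those 3 are among the 8 member probes that stood well above background in all 8 channels. Of the 14444 probes of that kind on the array, 16% were lower on all 4 arrays and 11.8% higher.

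**Figure D1:**
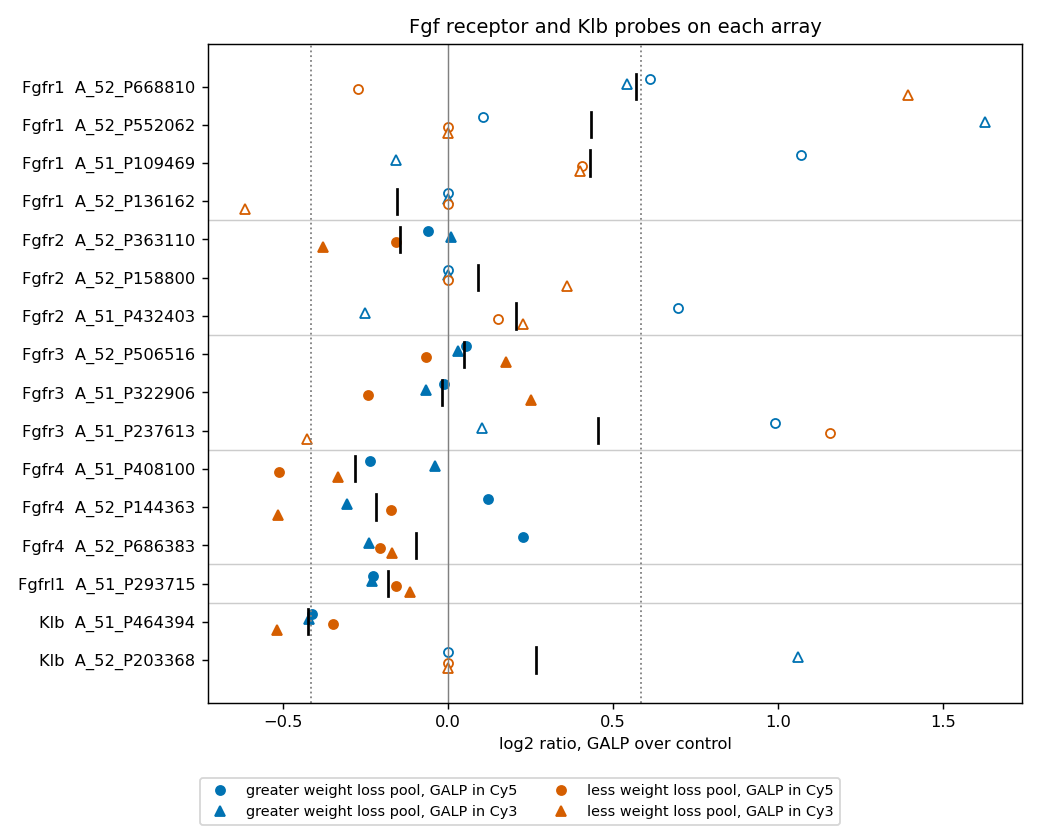
Log2 ratio of GALP over control (x axis) for each of the 16 member probes (rows) on each of the 4 arrays, with colour for the pool and shape for the dye of the GALP extract. Filled symbols are probes well above background in all 8 channels, black bars are means of the pools, and dotted lines are the 0.75-fold and 1.5-fold limits. The 4 Klb symbols in filled form lie between -0.52 and -0.35, whereas the open symbols of Fgfr1 spread from -0.62 to 1.63.

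Klb encodes the co-receptor that lets hepatocytes respond to endocrine fibroblast growth factors. Its RefSeq probe gave processed signals of 2482, 2071, 2873 and 2156 in the GALP channels and of 3309, 2775, 3660 and 3091 in the control channels. The control was brighter on every array, although the ranges over arrays overlapped, because arrays differ in brightness and the control pool alone spanned 1.32-fold. The ratios were -0.41, -0.42, -0.35 and -0.52, so the arrays with the dyes exchanged gave the same direction. The greater weight loss pool stood at -0.42 and the less weight loss pool at -0.43, which gave a mean of -0.43 ± 0.01 (SD, n = 2 pools). This was 0.748-fold and 0.74-fold of the control, just past the 0.75-fold limit in both pools. The software p-value was under 0.01 on 0 of 4 arrays and under 0.05 on 3, so the strict reading did not call Klb. With the p-value left out, Klb was the 1 member called lower, beside 0.877% of all probes, and 0 members were called higher, beside 0.375%.

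In limma the adjusted p of Klb was 0.374, and no probe on the array went below that value. With normexp background correction and loess in place of the processed ratios, the mean of Klb was -0.39. Its adjusted p in limma was then 0.0443, past the threshold. In that setting 95 probes passed over the whole array, beside 0 in the main one. Over the other limma settings the adjusted p of Klb ran from 0.137 to 0.583. The test reads the pool values, so the spread between arrays of 1 pool does not enter it. A mean at or below that of Klb was seen for 2.54% of the 14444 probes well above background in all channels. Among the hepatocyte markers, 5 were on the array, and their means ran from -0.06 for Apoa1 to 0.17 for Cps1, with albumin (Alb) at 0.05 ± 0.09 (SD, n = 2 pools). In whole liver RNA, fewer cells of a type and less RNA per cell cannot be told apart. The second Klb probe was at background in all 8 channels, and its ratio was exactly 0 on 3 arrays, so it gives no second measurement of the gene.

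**Figure D2:**
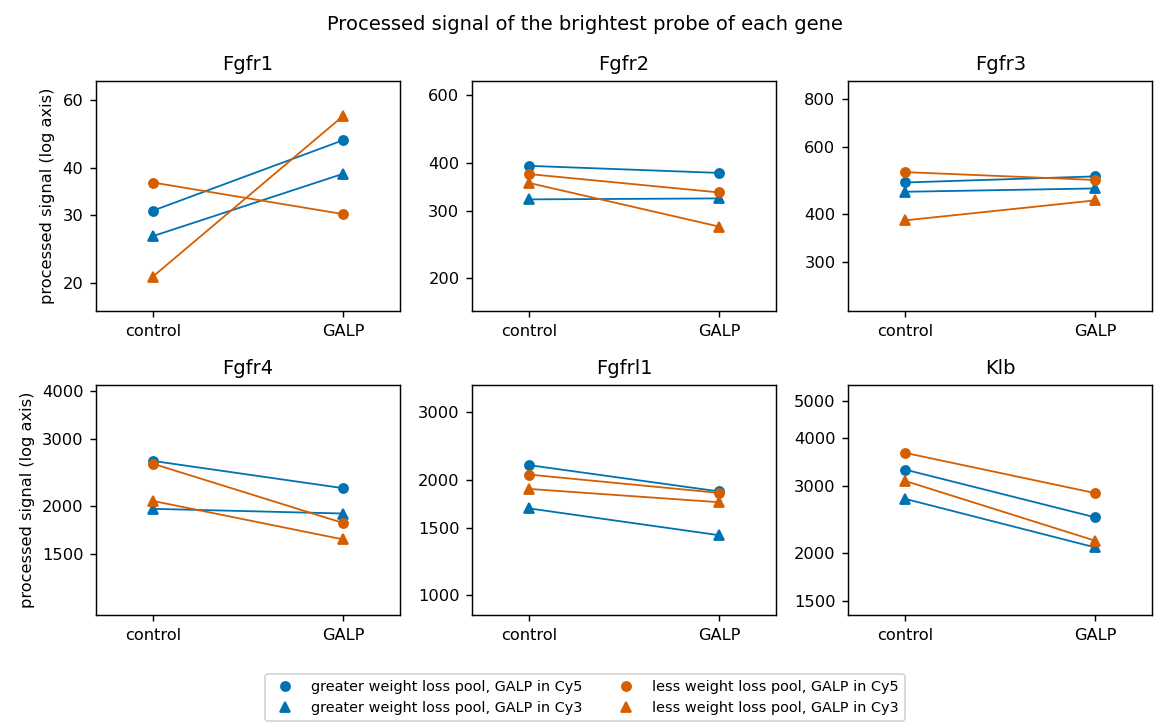
Processed signal (log axis, arbitrary scanner units) of the brightest probe of each gene in the control and the GALP channel, with a line for each array, colour for the pool and shape for the dye of the GALP extract. All 4 lines fall for Klb, Fgfr4 and Fgfrl1, and the lines of Fgfr1, between 20.8 and 54.6, cross.

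Fgfr4 is the main Fgf receptor of hepatocytes and the partner of β-Klotho in bile acid control. Its RefSeq probe, at 55269977 to 55270036 on chromosome 13, gave GALP signals of 2227, 1912, 1806 and 1636 and control signals of 2623, 1966, 2579 and 2062. The control was the brighter channel on all 4 arrays, with the smallest gap on the greater weight loss array with GALP in Cy3. The ratios were -0.24, -0.04, -0.51 and -0.33. The greater weight loss pool stood at -0.14 and the less weight loss pool at -0.42, a mean of -0.28 ± 0.20 (SD, n = 2 pools), with an adjusted p of 0.667 in limma. Only the less weight loss pool, at 0.745-fold, was past the fold limit. The difference between the pools, 0.29, has no test, since each is 1 sample.

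The other Fgfr4 probes carry an accession that the files describe as a splice variant. They gave ratios of 0.12, -0.31, -0.17 and -0.52 for A_52_P144363 and of 0.23, -0.24, -0.21 and -0.17 for A_52_P686383. Each was above the control on the greater weight loss array with GALP in Cy5 and below it on the other 3 arrays. Their means were -0.22 ± 0.18 and -0.10 ± 0.13 (SD, n = 2 pools), both nearer to the control than that of the RefSeq probe. In all 3 Fgfr4 probes the less weight loss pool had the lower ratio, by 0.18 to 0.29. These probes read the same extracts and are not independent samples.

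Fgfrl1, the receptor without a kinase domain, has 1 probe, at 109135524 to 109135583 on chromosome 5. GALP signals were 1865, 1433, 1849 and 1748, and control signals were 2185, 1684, 2065 and 1894. The control was brighter on each array, by a small and even margin. The ratios were -0.23, -0.23, -0.16 and -0.12, and the mean was -0.18 ± 0.07 (SD, n = 2 pools), with an adjusted p of 0.485 in limma. This is 0.88-fold of the control and does not reach the fold limit in either pool. With normexp correction and loess its mean was -0.24, with an adjusted p of 0.141 in limma, but it was no longer lower on all 4 arrays, which left the probes of Klb and Fgfr4 with that pattern.

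Fgfr2 and Fgfr3 are receptor kinases with ligands that act locally in tissues. The brightest Fgfr2 probe, A_52_P363110 on chromosome 7, gave GALP signals of 376, 323, 335 and 272 and control signals of 393, 321, 374 and 354. The channels lay close together on the arrays of the greater weight loss pool, and the control was brighter on those of the less weight loss pool. The ratios were -0.06, 0.01, -0.16 and -0.38, with pool values of -0.03 and -0.27 and a mean of -0.15 ± 0.17 (SD, n = 2 pools), or -0.01 with normexp correction and loess. For Fgfr3 the ratios of the overlapping probes were 0.05, 0.03, -0.07 and 0.17 for A_52_P506516 and -0.01, -0.07, -0.24 and 0.25 for A_51_P322906. The means, 0.05 ± 0.01 and -0.02 ± 0.03, fell on opposite sides of 0. The less weight loss pool was below the control with GALP in Cy5 and above it with GALP in Cy3, in both probes, so no direction can be given for Fgfr3. The adjusted p in limma was 0.702 for Fgfr2 and 0.471 and 0.768 for these Fgfr3 probes.

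Fgfr1 is the receptor that carries Fgf21 signals in adipose tissue. In these livers its 4 probes were at or near background, and control RNA was well above background in 0 of their 16 channels. The brightest, A_52_P668810, gave GALP signals of 47.2, 38.6, 30.2 and 54.6 and control signals of 30.9, 26.5, 36.6 and 20.8. The GALP channel was the brighter on 3 arrays and the dimmer on the less weight loss array with GALP in Cy5. Only the GALP channels of the greater weight loss pool were well above background, where the probe was at least 1.34-fold higher than the control, a bound set on each array by the higher of the control's own signal and the lowest control-channel signal that counted as above background. In the less weight loss pool both channels were at background, and no bound was given. The bound no longer exceeded 1 when the 5th percentile of signals above background was used as the background level.

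The ratios of A_52_P668810 were 0.61, 0.54, -0.27 and 1.39. The pool values of 0.58 and 0.56 nearly coincided, although the arrays behind the second one were 1 below and 1 above 0, and the mean was 0.57 ± 0.01 (SD, n = 2 pools) with an adjusted p of 0.374 in limma. The SD between pools is therefore far smaller than the spread between arrays of 1 pool, and limma, which reads the pool values, does not see that spread. With normexp correction and loess the mean was 0.05, with an adjusted p of 0.626 in limma, and the probe was higher on all 4 arrays. The dye orientations alone, without that correction, gave 0.17 with GALP in Cy5 and 0.97 with GALP in Cy3. The remaining single-spot Fgfr1 probes were A_52_P136162, at background in all channels, and A_52_P552062. The latter had a GALP signal of 64.7 against 20.9 on the greater weight loss array with GALP in Cy3, a ratio of 1.63, and was at background on the other 3 arrays.

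The Fgfr1 probe with 10 spots per array shows the spread within arrays. The software marked 5 of its 40 spots as outliers and 35 were used. On the greater weight loss array with GALP in Cy5 all 9 used spots were above the control, from 0.76 to 1.47. On the array of the same extracts with the dyes exchanged 3 were above and 5 below, from -0.79 to 0.93. The array means were 1.07, -0.16, 0.41 and 0.40, and the probe mean was 0.43 ± 0.04 (SD, n = 2 pools). Used spots were above background in both channels in 0 of 35 cases.

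The Fgfr2 probe with 10 spots, A_51_P432403, behaved alike, with array means of 0.70, -0.25, 0.15 and 0.23 from 32 used spots. On the greater weight loss pool 8 of 9 used spots were above the control with GALP in Cy5, and 0 of 7 with GALP in Cy3. Its mean was 0.21 ± 0.02 (SD, n = 2 pools), on the other side of 0 from the brighter Fgfr2 probe. The remaining Fgfr2 probe, A_52_P158800, was at background except on the less weight loss array with GALP in Cy3, where it read 154 against 120. The ligand genes Fgf9 and Fgf23, singled out after their values were seen, also had brightest probes above background on that array alone. The dim Fgfr3 probe A_51_P237613 was above the control on both arrays with GALP in Cy5, at 0.99 and 1.16, and at 0.10 and -0.43 on the others.

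**Figure D3:**
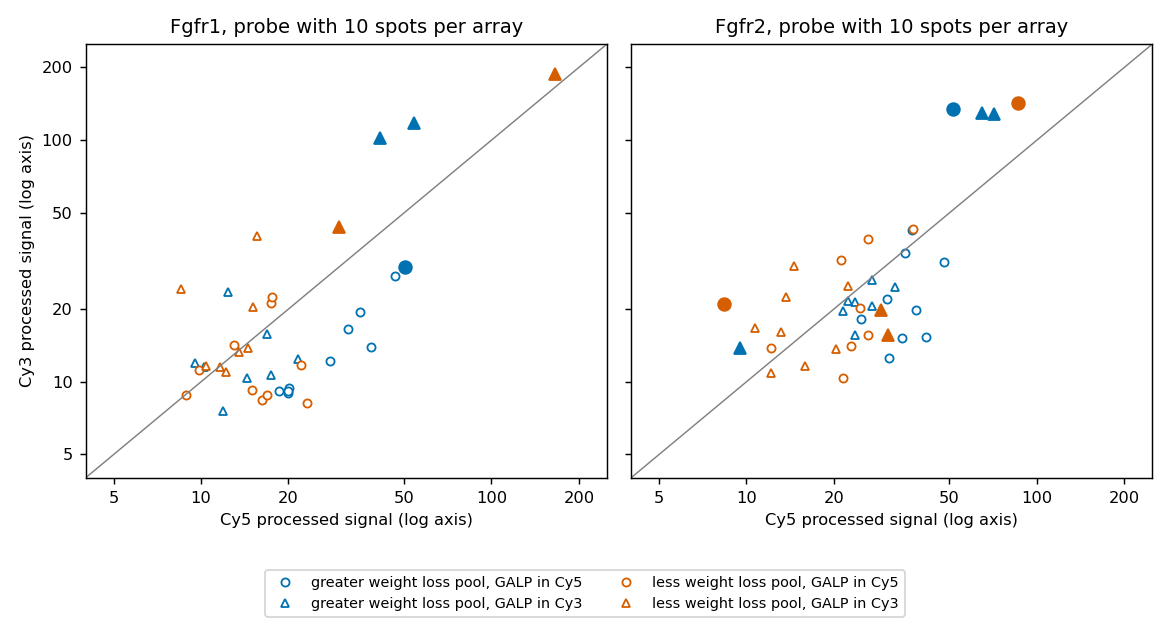
Cy3 against Cy5 processed signal (log axes) of every spot of the Fgfr1 and Fgfr2 probes with 10 spots per array, with open symbols for used spots, filled symbols for spots with an outlier mark, colour for the pool, shape for the dye of the GALP extract, and a line of equal signal. The 7 marked spots above background in both channels lie above the line, with Cy3 as the brighter channel.

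Among the spots that the outlier mark removed, 3 of Fgfr1 and 4 of Fgfr2 were well above background in both channels, with signals from 41.4 to 187. The Cy3 channel was the brighter in all 7, whichever extract it held. GALP was thus above the control in 3 of 3 Fgfr1 spots, all on arrays with GALP in Cy3, and in 2 of 4 Fgfr2 spots. With these spots kept, the 10-spot Fgfr1 probe was higher on all 4 arrays, and 1 member probe in place of 0 had that pattern.

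The pools differed little in Klb and more in Fgfr4. The greater minus less difference was 0.02 for Klb, 0.29 for Fgfr4, 0.24 for the brightest Fgfr2 probe, -0.09 for Fgfrl1 and -0.01 for the brightest Fgfr3 probe. Over the probes well above background in all channels the median size of this difference was 0.10. As geometric means over arrays, the Klb signal was 3193 in the control, 2489 in the less and 2268 in the greater weight loss pool. This order of the GALP pools lies within the 1.32-fold spread of the control over arrays. The control was also brighter on the less weight loss arrays (3660 and 3091) than on the greater at the same dye orientation (3309 and 2775). The pool ratios, -0.43 in the less and -0.42 in the greater, did not follow that order. For Fgfr4 the order was 2289 in the control, 2063 in the greater and 1719 in the less weight loss pool, with the control itself spanning 1.33-fold over arrays.

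The other genes of the pathway were read at the brightest probe of each gene. In these lists 0 genes had a called probe, beside 0.0585% of all probes called higher and 0.132% called lower. Over the 11370 genes with signal on every array, the median ratio was -0.01, with 12.8% higher and 14.5% lower on all 4 arrays. Of the 18 ligands, 17 were on the array and 3 had signal on every array, Fgf1, Fgf2 and Fgf21. Fgf21, the hormone that the liver itself secretes, had ratios of -0.25, 0.08, -0.58 and -0.52 and a mean of -0.32 ± 0.33 (SD, n = 2 pools). It was below the control on 3 of 4 arrays, and the pools stood at -0.08 and -0.55. Fgf1, which acts locally, was above the control on all 4 arrays at 0.19 ± 0.11. Fgf2 was at 0.58 ± 0.29, with 0.78 and 1.47 on the arrays with GALP in Cy5 and -0.02 and 0.09 on those with GALP in Cy3. Fgf15 was at background in every channel.

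Of the 22 co-receptors and heparan sulfate genes, 21 were on the array and 16 had signal on every array, with a median of -0.04. In this list 2 were higher on all 4 arrays and 2 lower. Kl, which encodes α-Klotho, was at background in every channel. The largest means were those of Hspg2 (perlecan) at 0.30 ± 0.07, Sulf2, a sulfatase that trims heparan sulfate, at 0.24 ± 0.25, and Sdc4 (syndecan-4) at 0.17 ± 0.08. Of the 26 receptor-proximal signalling genes, 25 were on the array and all 25 had signal on every array. Their median was -0.01, with 0 higher and 4 lower on all 4 arrays. Its largest means were those of the adaptors Gab1 at 0.37 ± 0.19 and Crkl at -0.36 ± 0.24 and of the ubiquitin ligase Cbl at 0.27 ± 0.05. Gab1 was above the control with GALP in Cy5 (1.16 and 0.63) and below it with GALP in Cy3 (-0.14 and -0.16).

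Many of the genes that ERK signalling induces are inhibitors of the same pathway. Of the 15 listed, 13 were on the array and 8 had signal on every array. Their median was -0.09, with 1 higher and 0 lower on all 4 arrays. Dusp6, a phosphatase of ERK and a common readout of Fgf receptor activity, was at 0.01 ± 0.07 (SD, n = 2 pools). Spry4 was at background in every channel. Spry2 was at -0.44 ± 0.40 and Spred2 at -0.15 ± 0.23. Both were dim, and both were above the control with GALP in Cy5 and below it with GALP in Cy3. The immediate early gene Egr1 was at 0.33 ± 0.45. Its ratios were 0.69 and 0.60 in the greater and 0.24 and -0.22 in the less weight loss pool.

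The bile acid genes were synthesis enzymes and nuclear receptors of bile acid feedback. They had signal in 7 of 7 cases, with a median of -0.21. In this list 1 was higher and 2 were lower on all 4 arrays. Cyp7a1, the rate-limiting enzyme of bile acid synthesis, had ratios of 0.76, 0.92, 0.28 and 0.24 and was above the control on each array. Its pools stood at 0.84 and 0.26, a mean of 0.55 ± 0.41 (SD, n = 2 pools). Nr0b2, the repressor SHP, was at -0.40 ± 0.27, below the control on 3 of 4 arrays. Cyp7b1, of the alternative bile acid pathway, was at 0.04 in the greater and -0.59 in the less weight loss pool.

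**Figure D4:**
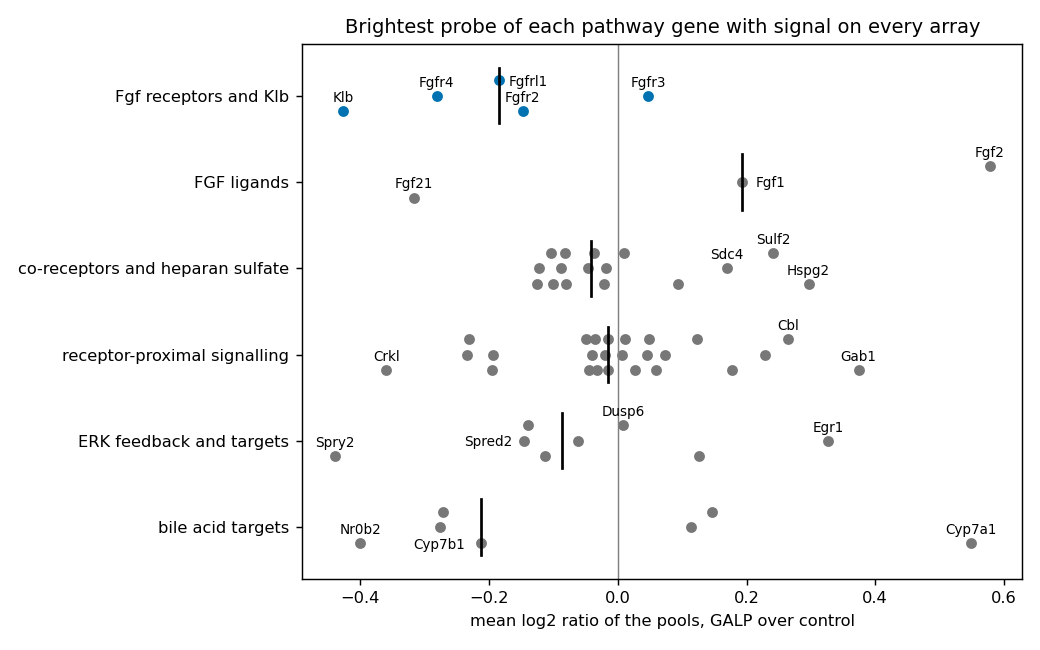
Mean log2 ratio of the pools (x axis) for the brightest probe of each gene with signal on every array, by gene list (rows), with a bar for the median of each list. Among the 5 receptor genes with signal the median was -0.18, with Klb lowest at -0.43, and the named genes of the other lists ran from -0.44 (Spry2) to 0.58 (Fgf2).

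The 3 genes whose ratios lay closest to those of Klb over the 4 arrays were Rdh11, Trip4 and Me1, at Euclidean distances of 0.0758, 0.0771 and 0.0922 in log2 units, out of 10649 genes above background in all channels. All share the control pool and the arrays with Klb. Rdh11 is a retinol dehydrogenase, Trip4 a transcriptional coactivator, and Me1, the malic enzyme that supplies NADPH for fatty acid synthesis, had ratios of -0.35, -0.37, -0.37 and -0.55.

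Among the markers of other cell types Marco and Lyve1 were called higher by the strict reading, beside 0.0585% of all probes. They were 1 of 6 Kupffer cell and macrophage markers and 1 of 7 sinusoidal endothelial markers on the array. The marker lists were chosen with earlier results of these data known, so these calls are a description only. Of the markers of other cell types 0 were called lower, beside 0.132% of all probes, and 0 passed limma's adjusted p of 0.05. Over all genes with signal on every array, 12.8% were higher and 14.5% lower on all 4 arrays. Of the Kupffer cell and macrophage markers, 4 of 6 were higher on all 4 arrays and 0 lower. Their means ran from -0.07 for Vsig4, with Clec4f at -0.0013, to 0.87 ± 0.25 (SD, n = 2 pools) for Marco, which was called. The summed signal of this list was 23614 to 28719 in the GALP and 20671 to 23262 in the control channels. Of the stellate and mesenchymal markers, 4 of 8 with signal were higher and 0 lower. Their means ran from -0.22 for Rgs5 to 0.66 ± 0.23 for Col1a1, with Dcn at 0.05 and Lrat at 0.07. The summed signals of 23838 to 36878 in the GALP and 26359 to 33679 in the control channels overlapped. Of the sinusoidal endothelial markers 2 of 7 were higher and 1 lower. Their means ran from -0.12 for Kdr to 0.74 ± 0.05 for Lyve1, which was called. The summed signals were 24062.5 to 30220 in the GALP and 24128.5 to 33506.5 in the control channels. Of the bile duct markers with signal 0 of 4 were higher and 1 lower on all 4 arrays. Of the adipose markers with signal 1 of 2 was higher, Cidec, a lipid droplet gene that fatty liver also expresses, at 0.75 ± 0.01. Skeletal muscle markers separated the pools, with Acta1 at 0.33 in the greater and -2.65 in the less weight loss pool. Of the 5 hepatocyte markers on the array, 2 were higher and 0 lower on all 4 arrays. Their signals summed to 106110 to 143046 in the GALP and 99727 to 135209 in the control channels. The part of these cells in the Fgf receptor and Klb values was not tested.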

How the data were processed

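The authors scanned the arrays, and per the file headers Agilent Feature Extraction 12.0.3.1 gave each spot a background-corrected, LOWESS-normalized processed intensity in both channels. Each deposited log10 ratio sets Cy5 over Cy3, with 0 written by the software where both channels held a substitute for background. A deposited p-value per ratio compares both extracts of that array. The series table, used as an alternative, equals these ratios turned to GALP over control except where the scanner files hold 0. The paper and the submitters' notes name other versions of the software.

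Ratios were converted to log2, spots with an outlier mark (232 to 319 of 43379 per array) were left out, and spots of a probe and then the 2 arrays of a pool were averaged. Between 40.5% and 46.7% of spots were well above background in a channel, which with the number of arrays limits the precision. A probe with several spots counted as above background when more than 50% of them were. The labels give the control channel a weight loss group, but the methods describe 1 control pool, so the spread of control mice enters no test. The mice of a pool were not measured singly.

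limma 3.58.1 in R 4.3.3 tested the pool ratios against 0 over 41037 probes, with 1 residual degree of freedom and Benjamini-Hochberg adjustment. The rule of the methods was read as holding on all 4 arrays. The brightest probe stood for a gene in the lists, named genes were every member probe, called list genes, the 3 largest means per list among probes with signal and Fgf21, Fgf15, Fgf1, Kl, Cyp7a1, Dusp6 and Spry4, and the 3 genes nearest to the bright member with the largest mean. The lists were ligands, co-receptors and heparan sulfate, receptor-proximal signalling, ERK feedback and targets, bile acid targets, and markers of hepatocytes, stellate, sinusoidal, Kupffer, bile duct, adipose and muscle cells. The members and lists were chosen with earlier results of these data known. The alternatives were other p-value rules, normexp (offset 50) with loess, centring, the series table, outlier spots kept, each dye orientation or pool alone, a signal filter, an intensity trend, probe averages and another background level. The procedures were run on simulated data with planted changes larger than any member mean. Recovery of changes of the size seen here was therefore not tested. Positions are on mm9. Python 3.11.15, numpy 2.4.6, pandas 2.3.3 and matplotlib 3.10.9 were used.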

Additional observations from a re-analysis of the deposited data

Results flagged for a closer look

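Cyp7b1, an oxysterol hydroxylase of bile acid synthesis, was above the control on both arrays of the greater weight loss pool (0.02 and 0.06) and below it on both arrays of the less weight loss pool (-0.61 and -0.58), a difference of 0.64 on the log2 scale that was not tested, since each pool is 1 sample.

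Spots of the 10-spot Fgfr1 and Fgfr2 probes that the software had marked as outliers, and that the comparisons leave out, held signal well above background in both channels with GALP above the control in 3 spots of Fgfr1 and 2 of Fgfr2. In the 2 further Fgfr2 spots of this kind the control was the brighter, and Cy3 was the brighter dye in all 7.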

How the results depend on the processing

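Klb stayed below the control in all 8 alternatives for its RefSeq probe, from -0.47 to -0.38 on the log2 scale. Under normexp with loess it was at -0.39 and passed the limma threshold, and the number of probes past that threshold over the whole array rose from 0 to 95. In that setting 3 member probes were higher on all 4 arrays. These were A_52_P668810 and A_52_P136162 of Fgfr1 and A_52_P158800 of Fgfr2, with means of 0.0506, 0.0491 and 0.0432. Keeping outlier spots gave 1 probe higher on all 4 arrays, A_51_P109469 of Fgfr1. With only probes with signal limma called 1 probe, not a member, and without the p-value rule 1 member, Klb, was called lower. The direction of dim or near-control probes turned in 9 cases. Under normexp these were A_52_P136162 of Fgfr1 (0.0491), A_52_P686383 of Fgfr4 (0.0011) and the second Klb probe (-0.0058). With GALP in Cy5 alone they were A_52_P506516 of Fgfr3 (-0.0075) and A_52_P686383 (0.0106). With GALP in Cy3 alone they were A_51_P432403 of Fgfr2 (-0.0131) and A_51_P322906 and A_51_P237613 of Fgfr3 (0.0915 and -0.16). Without the greater weight loss pool it was A_51_P322906 of Fgfr3 (0.0034). The mean of the brightest Fgfr1 probe fell from 0.57 to 0.05 under normexp, although the probe was then higher on all 4 arrays. The causes were not tested. Leaving out either pool gave 0 called members. Of the 128 alternative values of member ratios, 112 kept their direction, 7 were exactly 0 and 9 turned, and 1 changed its side of the limma threshold. No paired analysis was possible because the numbers given to arrays, in accession order, only mark the dye orientations of 1 pool, which share their extracts and were averaged, leaving 1 ratio per pool.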
